A study of Mus musculus with 4 samples.

Results

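The inflammasome genes described here are Nlrp3, Nlrc4, Nlrp12, Pycard, Casp1, Casp4, Nod1 and Nod2. The set was proposed with earlier results of these data known, and its probes were found by the gene names printed in the scanner files, a rule that uses no measured value. Of 27630 gene names on the array these are 8, and they lie under 10 of the 41174 probes of a mouse whole-genome array: 6 genes have 1 probe each, and Nlrp12 and Pycard have 2 each. All 10 probes were well above background on all 4 arrays, so none was lost to the filter on dim probes. The RNA came from immature granulocytes, the neutrophil precursors of the bone marrow, sorted from males of the strain C57BL/6. Mice of one genotype were wild type (WT, 2 arrays), and mice of the other had lost miR-223 (KO, 2 arrays). Each array was hybridised with the Cy3-labelled cRNA of a single sample. The age of the mice, the gate of the sort and the construction of the KO allele are not given in the sources used here. Whether each replicate was its own animal is not stated, so every p-value here reflects sample-to-sample spread that may be technical.

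Inflammasomes are cytosolic complexes that turn a danger signal into proteolysis. A sensor such as NLRP3 or NLRC4 recruits the adaptor ASC, encoded by Pycard, which assembles pro-caspase-1. Active caspase-1 matures the cytokine interleukin-1 beta and cuts gasdermin D, which opens pores in the membrane. Caspase-11, encoded by Casp4, senses lipopolysaccharide directly in the non-canonical pathway. NOD1 and NOD2 belong to the same protein family but sense bacterial peptidoglycan and signal to NF-kB. miR-223, abundant in myeloid cells, lowers transcripts that pair with its seed, and the Nlrp3 transcript is a reported target. The comparison asks which transcripts differ when miR-223 is missing.

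The microRNA that the KO mice lack and stretches of the probes that read 3 of the genes are shown first. The mature microRNA (RefSeq, GRCm38.p6, chromosome X, 96242884 to 96242905, plus strand) is 22 bases long, with its seed, bases 2 to 8, in capitals. The other runs are 30-base stretches of the 60-base array probes, in the sense of the transcript, with no capitals.
mmu-miR-223-3p: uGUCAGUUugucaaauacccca
Nlrp3 probe, first 30 bases: cggccttacttcaatctgttgttcagctct
Casp1 probe, first 30 bases: ggttcgattttcatttgaacaaccagaatt
Pycard, 30 of the 40 bases that both probes share: ccaggccttgaaggaaatacatccctactt
The site that pairs with the seed is AACTGACA in its 8-base form and ACTGAC in its 6-base form. Of all 41174 probes 0.136% contained the first on the sense strand and 1.41% the second, and of the 10 inflammasome probes 0 contained either. The signals below therefore come from stretches of the transcripts without these letters, which says nothing about the rest of each transcript.

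The 4 arrays were close in quality. Between 59.6% and 62.9% of spots were well above background and 0 were saturated. The 75th percentile of the processed signal, by which each array was scaled, was 310 to 314 in WT and 361 to 422 in KO. A level below is the base-2 logarithm of a probe's signal over that percentile, and a difference is the KO mean minus the WT mean. Levels of different probes were not compared, except where the signals of a marker list are summed or a probe is called bright or dim. Mir223 itself has 0 probes here, so the deletion could not be checked. With 2 arrays against 2, an exact permutation test over arrays cannot give a two-sided p under 0.333, and the tests rest on limma's shared spread across probes.

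Among the inflammasome transcripts the KO means of Nlrc4, Nlrp12, Casp1, Casp4 and Nod2 were higher by 1.21-fold to 1.43-fold, and those of the adaptor Pycard were within 0.05 of WT on the log2 scale. No probe passed the test. Both KO arrays lay above both WT arrays for 6 of the 10 probes, those of Nlrc4, Nlrp12 (both), Casp1, Casp4 and Nod2. Over all 25749 tested probes 26.3% did so. For 0 of the 10 did both KO arrays lie below both WT arrays, against 32.8% of all probes. The 4 probes of Nlrp3, Pycard (both) and Nod1 overlapped between genotypes. The median difference over the 10 probes was 0.30, against -0.03 over all tested probes. In limma with Benjamini-Hochberg adjustment over all tested probes 0 of the 10 had an adjusted p under 0.05 (the smallest was 0.115), and over all probes 0 did (0%, smallest adjusted p = 0.0874). At an unadjusted p under 0.05 limma gave 5 of the 10 probes, from 4 genes and all higher in KO, where 11.1% of all tested probes were higher at that level. Fewer of the 10, and fewer of all probes, reached that level with any 1 of the 4 arrays left out, which leaves 1 genotype with 1 array. In bulk RNA, fewer cells of a type and less RNA per cell cannot be told apart.

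**Figure D1:**
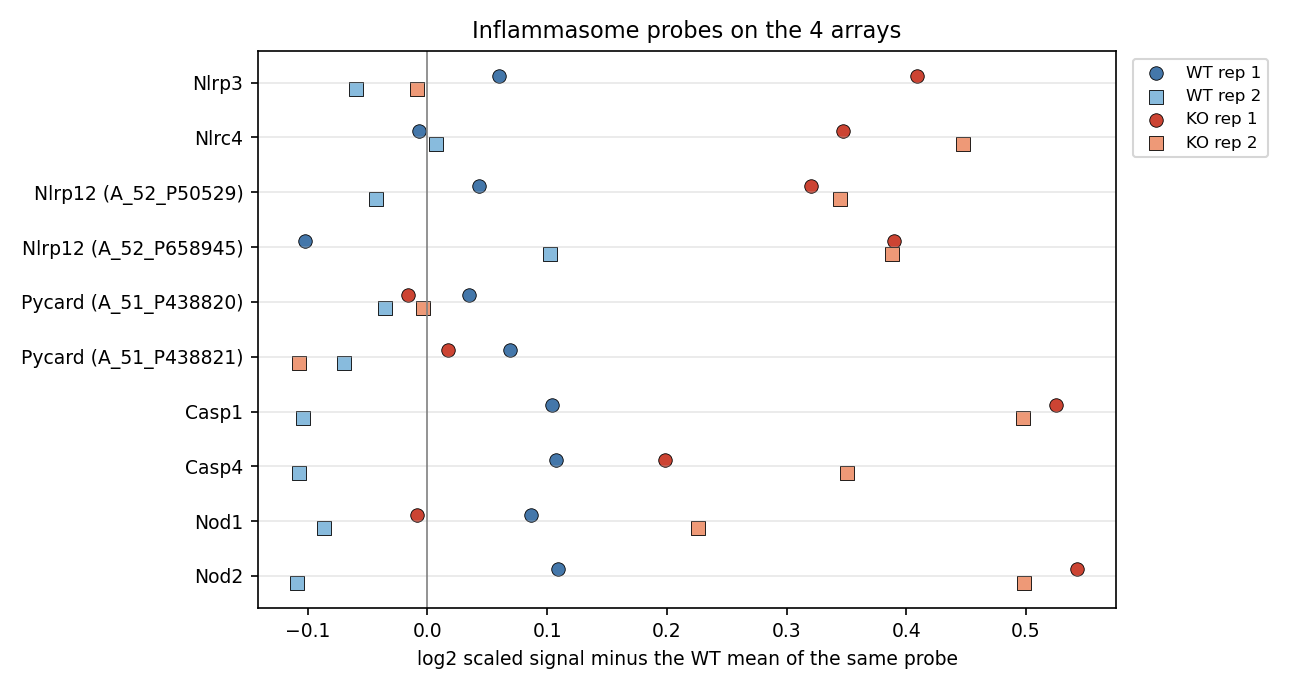
Each row is 1 inflammasome probe, and each symbol is 1 array (WT in blue, KO in red; circles for replicate 1, squares for replicate 2). The horizontal axis is the log2 scaled signal minus the WT mean of that probe. Both red symbols lie to the right of both blue ones for 6 probes, and the symbols mix for Nlrp3, Nod1 and both Pycard probes.

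Nlrp3, the sensor of potassium efflux and membrane damage and the reported target, was read by a dim probe (mm9 chr11:59378554-59378613, plus strand). The WT arrays gave processed signals of 15.4 and 14.0 and the KO arrays 22.5 and 19.7, which is 2.10 to 2.93 times that array's dimmest signal still well above background. The scanner software put the error of these spots at 12.6% to 14.8% of the signal. The raw signal was thus higher on both KO arrays, but so was the 75th percentile of those arrays. After scaling, the WT arrays were at -4.35 and -4.47 and the KO arrays at -4.00 and -4.42. KO replicate 2 fell between the WT arrays, and the KO arrays differed from each other by 0.42, more than the genotypes did. The difference was 0.20 ± 0.17 (SE, n = 2 arrays per genotype; 1.15-fold, 95% interval 0.822-fold to 1.61-fold; limma adjusted p = 0.518). It was -0.01 without KO replicate 1 and 0.41 without KO replicate 2. With the normexp background model fitted after leaving out control spots it turned to -0.17 (limma adjusted p = 0.303), and with the model fitted on all spots to -1.04 (limma adjusted p = 0.473). These arrays therefore give Nlrp3 no settled direction. Of 27 other genes reported as miR-223 targets 24 were tested, of which 20 had a higher KO mean (median difference 0.27), while over all 16978 genes tested 47.6% did and the median difference was -0.02.

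Nlrc4, the sensor that NAIP proteins engage on bacterial flagellin and type III secretion proteins, had KO levels above the WT levels on both arrays. Its signal (probe at mm9 chr17:74826172-74826231, minus strand) was 172 on both WT arrays and 253 and 317 on the KO arrays, and its levels were -0.87 and -0.85 in WT and -0.51 and -0.41 in KO. Neither pair of replicates spanned more than 0.10, and the nearest KO and WT arrays were 0.34 apart. The difference was 0.40 ± 0.09 (SE, n = 2 arrays per genotype; 1.32-fold, limma adjusted p = 0.118). Leaving out 1 array at a time gave 0.35 to 0.45, and normexp fitted on all spots gave 0.09 (limma adjusted p = 0.885).

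Nlrp12, a receptor of the NLR family that is expressed in myeloid cells and is known mainly for restraining NF-kB signalling, was read at places 14597 bases apart on mm9 chromosome 7. Signals of the first probe (A_52_P658945, chr7:3225358-3225417, minus strand) were 113 and 129 in WT and 183 and 213 in KO. Those of the other (A_52_P50529, chr7:3239955-3240014, minus strand) were 35.2 and 32.8 in WT against 49.1 and 58.3 in KO. The 2 probes share no sequence and gave similar differences, 0.39 ± 0.11 and 0.33 ± 0.09 (SE, n = 2 arrays per genotype; limma adjusted p = 0.149 and 0.137). The levels of the first were -1.47 and -1.27 in WT and -0.98 on both KO arrays. With normexp fitted without control spots the difference was 0.29 for A_52_P658945 and 0.02 for A_52_P50529, and with normexp fitted on all spots the direction turned for both, to -0.17 and -0.74.

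Pycard, the adaptor ASC that links pyrin-domain sensors to caspase-1, had nearly the same level in both genotypes. Its 2 probes share 40 of their 60 bases (mm9 chr7:135136221-135136280 and chr7:135136241-135136300, minus strand), so they are nearly the same measurement rather than independent ones. The first (A_51_P438820) had levels of 4.72 and 4.65 in WT against 4.67 and 4.68 in KO. The other (A_51_P438821) had 4.72 and 4.58 in WT against 4.67 and 4.55 in KO. Their differences were -0.01 ± 0.08 and -0.05 ± 0.10 (SE, n = 2 arrays per genotype; limma adjusted p = 0.951 and 0.811), and their sign changed with the scaling (0.07 and 0.03 with median centring, 0.53 and 0.39 with normexp fitted on all spots). The 95% interval of the first runs from 0.844-fold to 1.17-fold, so changes within that range are not resolved.

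Casp1, the protease that matures interleukin-1 beta, showed one of the 2 widest gaps between genotypes in the set. Its 60-base probe covers 503 bases of mm9 chromosome 9 (chr9:5306226-5306728, plus strand) and so spans an intron. Signals were 2131 and 1821 in WT against 3279 and 3758 in KO. The levels were 2.76 and 2.55 in WT and 3.18 and 3.15 in KO, so that the nearest arrays of the 2 genotypes stood 0.39 apart while the WT arrays differed by 0.21 and the KO arrays by 0.03. The difference was 0.51 ± 0.11 (SE, n = 2 arrays per genotype; 1.43-fold, 95% interval 1.15-fold to 1.76-fold; limma adjusted p = 0.115). It stayed between 0.41 and 0.62 with any 1 array left out, and was 0.84 with normexp fitted on all spots.

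Casp4, the mouse lipopolysaccharide-sensing caspase-11, lies next to Casp1 with 0 protein-coding genes between them in the RefSeq gene table. Its probe (mm9 chr9:5336645-5336704, plus strand) gave signals of 4192 and 3568 in WT and 5132 and 6660 in KO. Levels were 3.74 and 3.52 in WT against 3.83 and 3.98 in KO. The KO arrays lay above the WT arrays by a narrow 0.09, less than the 0.21 between the WT arrays. The difference was 0.27 ± 0.12 (SE, n = 2 arrays per genotype; 1.21-fold, limma adjusted p = 0.266), and the 95% interval, 0.954-fold to 1.53-fold, includes no change. It was 0.17 without WT replicate 2, at most 0.38 without any 1 other array, and 0.68 with normexp fitted on all spots.

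Because both caspase genes had higher KO means, the 250 bases before their annotated starts are shown beside those of Nlrp3 (RefSeq, GRCm38.p6, plus strand; for Nlrp3 and Casp4, which have 2 starts in the table, the one further upstream). Capitals mark matches on either strand to the kappaB motif, which NF-kB binds.
Casp1, chr9:5298267-5298516: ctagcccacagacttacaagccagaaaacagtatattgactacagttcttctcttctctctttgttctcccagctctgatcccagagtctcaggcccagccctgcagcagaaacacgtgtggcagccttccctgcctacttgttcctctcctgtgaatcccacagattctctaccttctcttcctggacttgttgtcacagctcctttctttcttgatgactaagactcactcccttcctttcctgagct
Casp4, chr9:5308599-5308848: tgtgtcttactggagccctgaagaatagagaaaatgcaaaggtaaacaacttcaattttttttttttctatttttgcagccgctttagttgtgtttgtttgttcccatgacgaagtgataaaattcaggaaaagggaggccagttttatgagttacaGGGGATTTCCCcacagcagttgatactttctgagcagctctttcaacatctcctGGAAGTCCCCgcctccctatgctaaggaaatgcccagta
Nlrp3, chr11:59541319-59541568: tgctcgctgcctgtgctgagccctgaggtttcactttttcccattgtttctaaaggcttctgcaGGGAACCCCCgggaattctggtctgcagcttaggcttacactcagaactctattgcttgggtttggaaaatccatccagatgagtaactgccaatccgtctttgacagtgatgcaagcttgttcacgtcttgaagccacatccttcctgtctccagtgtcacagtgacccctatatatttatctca
The Casp4 window held 3 matches to kappaB, 2 of which overlap each other, from -93 to -83 and from -39 to -30 relative to the start. The Nlrp3 window held 1, from -186 to -177, and the Casp1 window 0. Such a match was held by 7.25% of the 32851 windows of this length. Among the 11 windows of the 8 genes 3 held one, of which 2 are Casp4 windows that overlap each other. The core of the interferon-stimulated response element, present in 2.98% of windows, occurred in 0 of the 11 windows of the 8 genes, and so did the AP-1 motif TGANTCA (6.75%). The other motifs searched were GAS (TTCNNNGAA, 7.02% of windows) in Nlrp12 and Nod1, C/EBP (TTGCNNAA, 9.56%) in Nlrc4, Nlrp12 and Pycard, and PU.1 (GAGGAAGT, 2.44%) in Pycard. These are matches of letters in short windows and were not tested as binding sites.

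Nod1 and Nod2, the peptidoglycan receptors, differed in how cleanly the genotypes separated. Nod2, which senses muramyl dipeptide, had signals of 58.4 and 49.6 in WT and 90.7 and 102.7 in KO (probe at mm9 chr8:91212170-91212224, plus strand). Its levels were -2.43 and -2.65 in WT and -1.995 and -2.04 in KO, and the nearest arrays of the genotypes were 0.39 apart. The difference was 0.52 ± 0.11 (SE, n = 2 arrays per genotype; 1.43-fold, 95% interval 1.15-fold to 1.78-fold; limma adjusted p = 0.116). With normexp fitted without control spots it was 0.18, and with normexp fitted on all spots it turned to -0.37. Nod1, which senses a peptidoglycan fragment found mainly in Gram-negative bacteria, had levels of 4.44 and 4.26 in WT against 4.34 and 4.58 in KO (probe at mm9 chr6:54874007-54874066, minus strand). The genotypes overlapped, and the difference was 0.11 ± 0.13 (SE, n = 2 arrays per genotype; limma adjusted p = 0.640), or -0.01 without KO replicate 2, 0.02 without WT replicate 2 and 0.55 with normexp fitted on all spots. Whether the differences of Nod1 and Nod2 differ from each other was not tested.

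**Figure D2:**
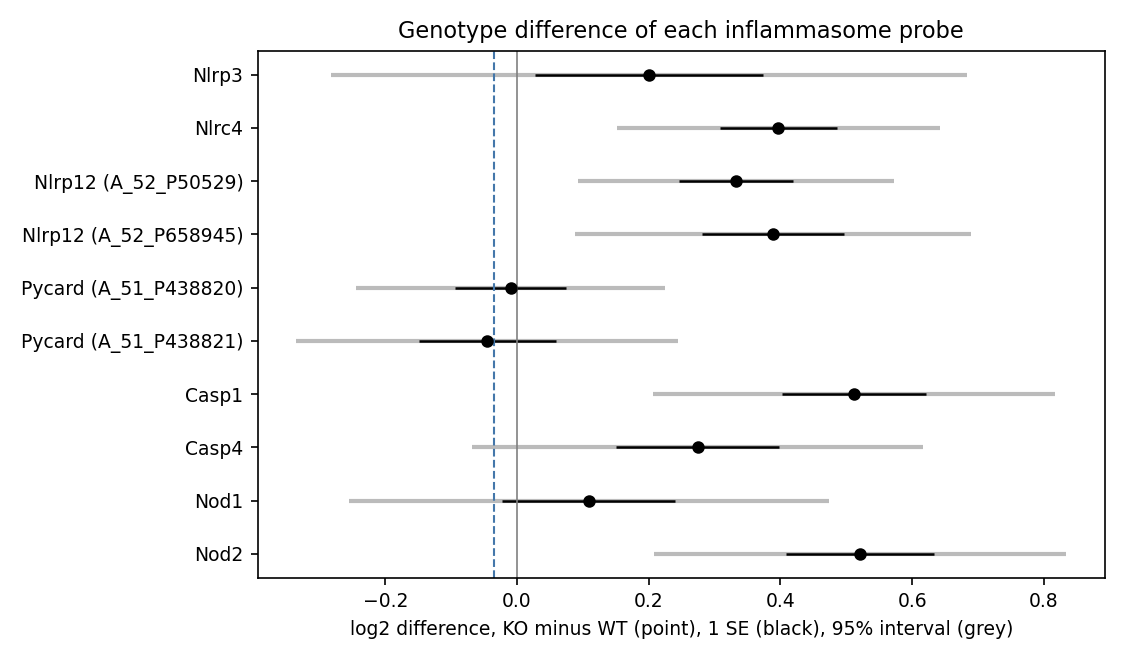
Points are the log2 differences, KO minus WT, of the 10 inflammasome probes, with 1 SE in black and the 95% interval from limma in grey; the dashed line is the median of all tested probes, -0.03. The intervals of Nlrc4, both Nlrp12 probes, Casp1 and Nod2 lie above 0, without adjustment for the number of probes tested, and those of Nlrp3, Pycard, Casp4 and Nod1 include 0.

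Because the KO arrays had higher 75th percentiles, each probe was also set against the mean of the Pycard probes on its own array, a ratio in which the scaling cancels. Pycard was picked for this after its values were seen. Its mean differed by only -0.03, so each difference on this scale is the scaled one raised by 0.03 (0.54 against 0.51 for Casp1). The ratio is thus no independent check. On that scale, with each WT mean set to 0, Casp1 stood at 0.05 and -0.05 in WT and at 0.52 and 0.55 in KO. The KO arrays stood at 0.54 and 0.55 for Nod2, at 0.35 and 0.50 for Nlrc4, and at 0.20 and 0.41 for Casp4. Nlrp3 reached 0.41 and 0.05 in KO, against WT values of 0.01 and -0.01, so its genotypes did not overlap on this scale although they did after scaling. The nearest of these values, 0.05 and 0.01, are close for a probe whose spots had an error of 12.6% to 14.8% of the signal. Nod1 stood at -0.01 and 0.28 against 0.03 and -0.03 and still overlapped. Such a ratio describes 2 transcripts against each other, was not tested here, and does not show that Pycard was constant.

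With an intensity trend in limma's prior variance, which lends bright probes a smaller spread and dim ones a larger, 2 of the 10 probes had an adjusted p under 0.05. These were Casp1 (adjusted p = 0.0228) and Nlrc4 (adjusted p = 0.0499), both higher in KO, while 5.03% of all tested probes were called higher. Nod2 followed at an adjusted p of 0.0653. Against the fit without the trend the SE was smaller for Casp1 (0.088 against 0.110). It was larger for Nlrc4 (0.095 against 0.088) and for Nod2 (0.138 against 0.113). The same 2 probes passed with normexp fitted without control spots, Casp1 at a limma adjusted p of 0.0195 and Nlrc4 at one of 0.0427. With that setting 3545 of all 25749 tested probes passed, 1372 of them higher in KO.

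**Figure D3:**
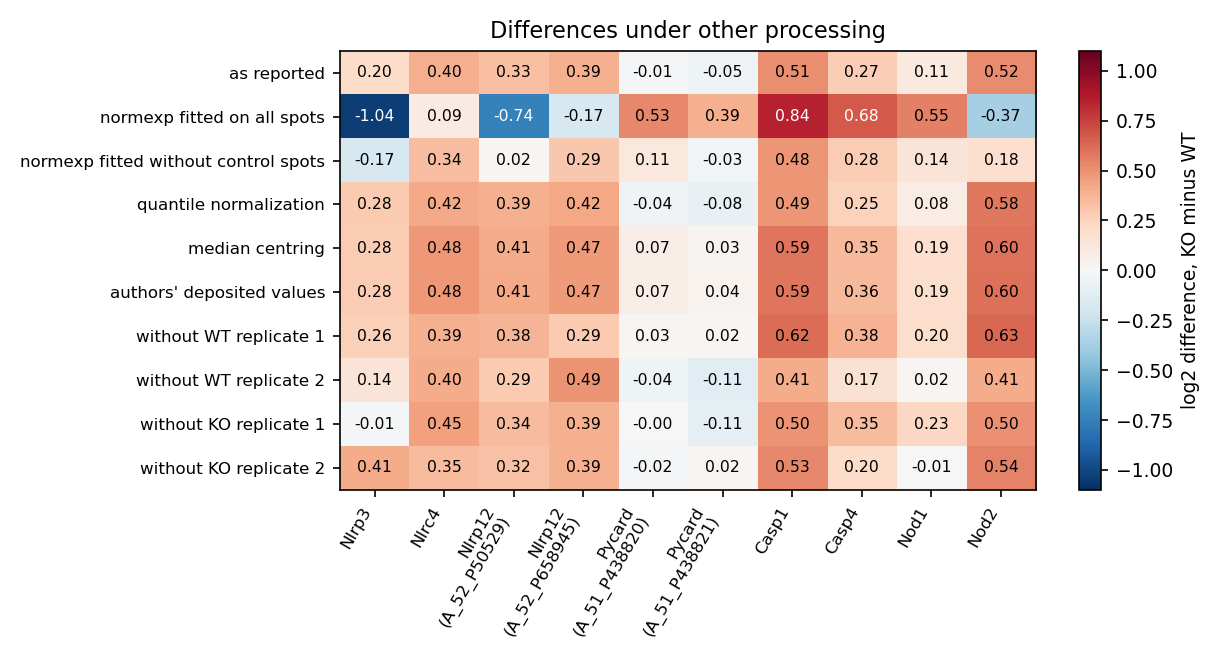
Each cell gives the log2 difference, KO minus WT, of 1 inflammasome probe (columns) under 1 way of processing (rows), coloured from blue (lower in KO) to red (higher). Casp1, Casp4 and Nlrc4 stay above 0 in every row, from 0.41 to 0.84 for Casp1. Nlrp3 runs from -1.04 to 0.41.

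Other genes of the pathway were read from lists, 1 probe per gene, and 0 genes of any of them had an adjusted p under 0.05. Over all 16978 tested genes both KO arrays lay above both WT arrays in 28% and below in 30.5%. At an unadjusted p under 0.05, 11.9% were higher and 12.1% lower, and 47.6% had a higher KO mean.

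Among the other members of the NLR family 12 of 24 genes were tested. Both KO arrays lay above the WT arrays in 6 and below in 2, 3 were higher and 0 lower at an unadjusted p under 0.05, and the median difference was 0.14. Naip5, the flagellin receptor that engages NLRC4, had levels of 1.99 and 1.76 in WT and 2.41 on both KO arrays, a difference of 0.53 ± 0.12 (SE, n = 2 arrays per genotype; limma adjusted p = 0.116). The Naip genes are close copies of each other, so signal from one may reach the probe of another. Nlrp1a (0.72 ± 0.10) and Nlrp10 (0.62 ± 0.13) came before it by p-value. Both probes are dim, with WT levels between -4.96 and -4.77, and with the intensity trend their adjusted p rose to 0.116 and 0.178.

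The effectors and substrates had differences of both signs. Of 11 genes 9 were tested, 3 lay above and 2 below in KO without overlap, and the median difference was -0.02. The interleukin-1 receptor antagonist Il1rn had levels of 0.83 on both WT arrays and 1.82 and 2.04 in KO. Ninj1, which ruptures the plasma membrane at the end of pyroptosis, differed by 0.52 ± 0.10, and Gsdme, a gasdermin cut by caspase-3, by -0.39 ± 0.10 (SE, n = 2 arrays per genotype; limma adjusted p = 0.103 and 0.132). The direct substrates of caspase-1, named here after their values were seen, differed from each other in their values. Il1b had levels of -0.39 and -0.69 in WT and -0.05 and 0.55 in KO, a difference of 0.79 ± 0.25 (limma adjusted p = 0.173). Gsdmd differed by -0.02 ± 0.08 and Il18 by -0.05 ± 0.18.

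Genes that activate or restrain NLRP3 mostly had higher KO means, 23 of 27 tested. Of these 27 genes 18 lay above and 2 below without overlap, 8 were higher and 0 lower at an unadjusted p under 0.05, and the median difference was 0.22. Kcnk6, a potassium channel that carries the efflux NLRP3 responds to, had levels of 1.61 and 1.62 in WT and 2.34 and 2.38 in KO (limma adjusted p = 0.0897). Card6 (0.57 ± 0.11) and the lysosomal protease Ctsb (0.40 ± 0.09) followed. Nek7, the kinase that NLRP3 needs to assemble, differed by 0.20 ± 0.09. Mefv, which encodes the sensor pyrin, was at 0.03 ± 0.08, and it and Nek7 were named after their values were seen.

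All 13 tested genes of the non-canonical pathway and its guanylate binding proteins had a higher KO mean, 10 of them without overlap (6 higher and 0 lower at an unadjusted p under 0.05; median difference 0.45). Gbp7 (named Gbp6 in the files) and Gbp2, of a family of close copies that coats bacteria and brings lipopolysaccharide to caspase-11, differed by 0.997 ± 0.12 and 0.49 ± 0.11, and the immunity-related GTPase Irgm1 by 0.60 ± 0.09. In NOD1 and NOD2 signalling 19 of 20 genes were tested, with 8 above and 7 below and a median difference of -0.004. Slc15a3 and Slc15a4, transporters that pass muramyl dipeptide out of endosomes, had differences of 0.88 ± 0.08 and 0.65 ± 0.13 (SE, n = 2 arrays per genotype; limma adjusted p = 0.0874 and 0.109). Tab1, a subunit of the TAK1 kinase complex, was at -0.31 ± 0.11, and the adaptor kinase Ripk2, named after its value was seen, at 0.26 ± 0.12.

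**Figure D4:**
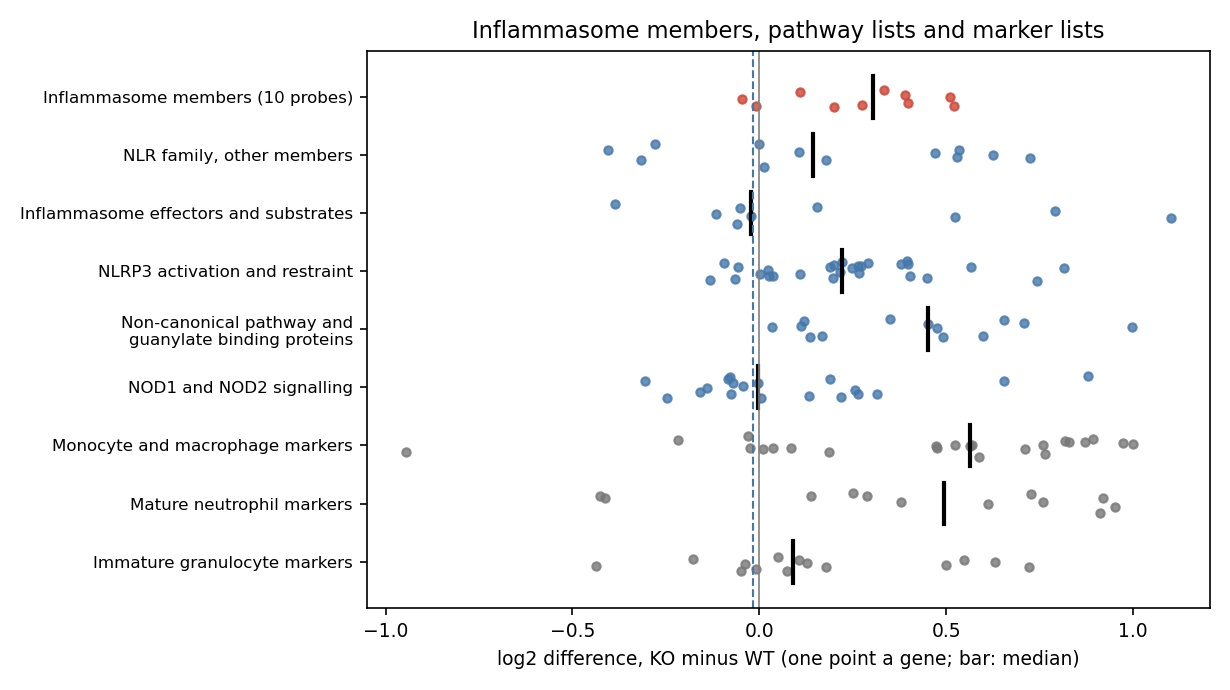
Each point is the log2 difference, KO minus WT, of 1 probe (top row, red) or 1 gene (blue, other pathway genes; grey, the 3 marker lists drawn here), black bars are medians and the dashed line is the median of all tested genes, -0.02. The medians are -0.02 for effectors, 0.30 for the inflammasome probes, 0.45 for the non-canonical pathway, 0.50 for mature neutrophil and 0.56 for monocyte markers.

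Markers of other cells also differed between the arrays, and inflammasome genes are expressed in monocytes and mature neutrophils too. Of 23 monocyte and macrophage markers 19 had a higher KO mean, with a median difference of 0.56 and 13 higher and 1 lower at an unadjusted p under 0.05. Their scaled signals summed to 1112 and 881 on the WT arrays and to 1030 and 1064 on the KO arrays. The 2 brightest markers, Ly6c2 and Lyz1, held 87.0% to 93.1% of that sum and differed by 0.04 ± 0.10 and 0.01 ± 0.38. The other 21, separated out after the sums were seen, summed to 76.6 and 79.0 in WT and to 133.9 and 116.6 in KO. Without overlap 15 lay above, among them Ccr2 (0.82 ± 0.09). Of 12 mature neutrophil markers 10 had a higher KO mean (median 0.50; summed signal 134 and 132 in WT, 144 and 181 in KO). Of 16 markers of immature granulocytes 14 were tested and differed by a median of 0.09. Their summed signals, in which the 2 brightest markers, Ltf and Mpo, weigh most, were 4944 and 5343 in WT and 5356 and 4710 in KO. Without overlap 7 lay above and 2 below, and 3 were higher and 0 lower at an unadjusted p under 0.05. Those 3, Prtn3, Ctsg and Elane, differed by 0.72 ± 0.10, 0.63 ± 0.09 and 0.50 ± 0.10. The 2 below, Ltf and Chil3, differed by -0.44 ± 0.24 and -0.18 ± 0.10. The primary granule enzyme Mpo was at levels of 9.99 and 10.12 in WT and 10.23 and 9.98 in KO. Of 8 dendritic cell markers 7 had a higher KO mean (summed signal 54.2 and 61.7 in WT, 98.3 and 77.0 in KO). Of 10 tested eosinophil and basophil markers 6 had a higher KO mean (median 0.29), with 5 higher and 2 lower at an unadjusted p under 0.05. The eosinophil granule protein Prg2 differed by 1.51 ± 0.31. The 2 lower, Ccr3 and Prss34, differed by -0.62 ± 0.19 and -0.92 ± 0.28. The summed signal of this list was 14.3 and 12.6 on the WT arrays and 21.0 and 19.5 on the KO arrays. Ear1, the brightest of these markers, weighs most in that sum and differed by 0.47 ± 0.11. Of 10 T and NK cell markers 3 had a higher KO mean (median -0.14), and of 7 B cell markers 1 did (median -0.26). Each of 6 tested erythroid markers had a lower one (median -0.62), as did 16 of 17 mitotic genes (median -0.50). The markers named here were picked after their values were seen. The part of these cells and of the cell cycle in the differences of Nlrc4, Nlrp12, Casp1, Casp4 and Nod2 was not tested.

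The genes whose profile over the 4 arrays was closest to that of Nlrp3 were Dctd, Tsen54, Plekhm3, Rtl6 and Tmem106c. Each profile was taken as log2 values minus the gene's own mean, and the root mean square distances were 0.018 to 0.026 among 12089 genes. The distance of Nlrp3 from the other 7 inflammasome genes was 0.19 to 0.24. With 4 arrays such closeness is a description only.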

How the data were processed

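Total RNA of 4 sorted samples was measured on 1-colour arrays. Per the file headers, Agilent Feature Extraction 10.5.1.1 removed spatial trends and local background, the deposited intensity is its processed signal with no scaling between arrays, and the probe annotation is on mm9. The log2 values that the authors deposited separately tracked the scaled log2 signals of the same arrays (r of at least 0.999989 across probes) and served as an alternative.

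From these, log2 processed signals had the 75th percentile of non-control spots subtracted, and probes well above background on at least 2 arrays were kept (25749 of 41174). Differences were tested per probe with limma 3.58.1 in R 4.3.3 (Benjamini-Hochberg, adjusted p under 0.05) without a replicate block, and the procedure was tested on simulated data. Genes were named through RefSeq (26933 probes by accession, 7777 keeping the file's name), and pathway genes were taken by their brightest tested probe. The text names every member, up to 3 genes per pathway list by smallest p, the 5 nearest Nlrp3 profiles, and others where stated. The members and lists were chosen with earlier results of these data known. Alternatives changed background correction, scaling, filter, variance prior, gene rule, block and arrays.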

Additional observations from a re-analysis of the deposited data

How the results depend on the processing

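The 2 arrays per genotype limit every comparison, and Nlrp3 is also limited by its signal, at most 2.93 times the lowest one called well above background. Of 158 values of the 10 probes under other settings 17 changed sign and 137 kept sign and side of the threshold. Changing the filter, the variance prior, the block or the probe chosen per gene left a probe's difference as it was. No sign could change there, nor on averaging probes for the 6 genes with 1 probe, so the 137 overstate stability. That averaging also counts Nlrp12 and Pycard 2 times each. The cause of the changes was not tested. With normexp fitted on all spots the differences were -1.04 for Nlrp3, -0.74 (A_52_P50529) and -0.17 (A_52_P658945) for Nlrp12, -0.37 for Nod2 and 0.53 and 0.39 for Pycard, and with normexp fitted without control spots -0.17 for Nlrp3 and 0.11 for Pycard (A_51_P438820). Pycard was at 0.0691 and 0.0339 with median centring and at 0.0715 and 0.0363 in the authors' deposited values. Leaving out 1 array gave -0.00861 to 0.409 for Nlrp3, -0.00857 to 0.226 for Nod1, and -0.0449 to 0.0253 and -0.114 to 0.0243 for Pycard. Over all probes the number with an adjusted p under 0.05 in limma was 3545 with normexp fitted without control spots (2 of the 10). With the intensity trend it was 2480 (2 of the 10). In the deposited values it was 267, with probes above background on all 4 arrays 128 and with median centring 106. Each of these 3 settings gave 0 of the 10. With the replicate number as a block it was 0, and 0 of the 10 (smallest adjusted p = 0.160; 5928 probes and 5 of the 10 at an unadjusted p under 0.05). The numbers were not taken as pairs, since deviations of same-numbered arrays correlated at 0.0267 across probes, and the block changed no other call. The median difference of all probes was -0.31 with normexp on all spots, -0.10 without control spots and 0.05 in the deposited values.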
